A study of Homo sapiens with 9 samples.

Results

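This account concerns 41 genes of the NF-kB pathway and of inflammatory cytokine signalling, out of 26475 genes in the count table of the study. They were chosen by symbol, as a list put together with earlier results of these data in view, among them that PTGS2 and BCL3 were higher in both conditions than in the control. PTGS2 and BCL3 are therefore described without a test against the control. The cells were hTERT-RPE1, a telomerase-immortalised line from human retinal pigment epithelium, and RNA-seq was done on 3 libraries in each of 3 groups, 24 h after seeding. Control cells carried the empty pLKO vector (labelled as control shRNA) on fibronectin-coated glass. The sh_PIP4K2B cells, also on fibronectin-coated glass, were transduced with shRNA against PIP4K2B, a lipid kinase that phosphorylates phosphatidylinositol 5-phosphate. Each of these 3 libraries carried a different hairpin, numbered 1 to 3, so that a hairpin has 1 library and its own effect cannot be told apart from that library. Soft cells carried the Control vector and were grown on a fibronectin-coated gel of 2.3 kPa. All 9 libraries thus share 1 line and vector transduction, and nothing in the labels says that libraries came from separate derivations of the line. The p-values given here measure the spread between these libraries, which within Control and within Soft may be technical. Between the sh_PIP4K2B libraries, which carry different hairpins, the spread was wider, as given below. Where all 9 libraries were fitted together, the p-values of Soft against Control also take in the spread between hairpins.

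NF-kB is a family of dimeric transcription factors built from RELA, RELB, REL, NFKB1 and NFKB2. In resting cells the dimers are held in the cytoplasm by inhibitors of the IkB family such as NFKBIA. Signals from receptors for interleukin-1 or tumour necrosis factor lead to loss of the inhibitor and entry of the dimers into the nucleus, where they raise the transcription of cytokines, chemokines and adhesion molecules, and of their own inhibitors. The epithelial cells of the retinal pigment layer are known to secrete chemokines such as CXCL8 and CCL2 when exposed to inflammatory cytokines.

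NF-kB dimers bind decameric DNA sites, and the sites below are shown because they lie beside genes whose levels are described in the following paragraphs. RefSeq promoters, from 250 bases before to 50 bases after a transcription start (GRCh38.p14), were found for 36 of the 41 genes, with 56 promoters in all. A match to the NF-kB consensus decamer on either strand was present in 19 of these 56 promoters (33.9%) and in 11.3% of all 35116 promoters. Matches on the 2 strands may overlap. The 19 promoters belong to 17 genes. These are BCL3, BIRC3, CXCL1, CXCL2, CXCL3, IL32, IL6, IL6ST, NFKB1, NFKB2, NFKBIA, NFKBIB, NFKBIZ, REL, TNFAIP3, TNIP1 and VCAM1. Of these genes, only NFKBIA, NFKBIZ and IL6 were called against Control in the fit of 9 libraries described below. BCL3 was not tested there, VCAM1 had too few counts, and the others, such as NFKB1, NFKB2, REL and TNIP1, were not called. The other members with promoters, among them PTGS2 and CXCL8, had no match. They include PTGES, ICAM1, IL1A, IL1B, IL1R1, SOCS3, SOD2, TRAF1 and BIRC2, which were called. A link between a site and a change in level was not tested. No promoter was found for CCL2, CSF1, LIF, NFKBIE and RELB. One site from each of 7 members is printed 5′ to 3′ on the strand of its gene, with the decamer in capitals.
BCL3, chr19:44748700-44748729, plus strand: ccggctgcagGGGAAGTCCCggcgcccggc
NFKBIA, chr14:35404811-35404840, minus strand: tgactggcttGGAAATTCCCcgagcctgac
NFKBIZ, chr3:101827757-101827786, plus strand: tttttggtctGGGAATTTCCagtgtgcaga
IL6, chr7:22727117-22727146, plus strand: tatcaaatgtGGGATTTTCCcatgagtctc
CXCL1, chr4:73869304-73869333, plus strand: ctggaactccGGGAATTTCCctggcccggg
CXCL2, chr4:74099254-74099283, minus strand: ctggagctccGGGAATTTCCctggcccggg
CXCL3, chr4:74038749-74038778, minus strand: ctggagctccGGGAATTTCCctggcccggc
The decamer GGGAATTTCC was found on the gene strand in 6 members, namely CXCL1, CXCL2, CXCL3, NFKB1, NFKBIB and NFKBIZ. The STAT motif TTCNNNGAA, which reads the same on both strands, was present in 5 of the 56 promoters (8.93%) and in 7.66% of all promoters. It lay beside CSF2, ICAM1, IL1B, IL1R1 and RELA. The ICAM1 site, shown because ICAM1 was high with hairpin 3 alone among the hairpins, begins 75 bases before the start.
ICAM1, chr19:10271035-10271063, plus strand: ggcgcgaggtTTCCGGGAAagcagcaccg
A match is a description of the sequence and not of binding.

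Libraries held between 19217346 and 24020799 counts. PIP4K2B itself was at 122 ± 2.26 CPM in Control (CPM, the share of a library's counts scaled to a common library size by TMM; mean ± SD, n = 3) and at 48.4, 40.9 and 36.6 CPM with hairpins 1, 2 and 3 (log2 fold change -1.54, SE 0.12, adjusted p = 3.80e-04). In Soft it was at 122 ± 3.90 CPM. The related kinase PIP4K2A was at 53.9 to 58.3 CPM in Control and at 24.5, 46.7 and 80.2 CPM with hairpins 1, 2 and 3. PIP4K2C was at 60.5 to 68.2 CPM in Control and at 77.3, 64.6 and 37.8 CPM with these hairpins. Neither passed in sh_PIP4K2B (adjusted p = 0.808 and 0.799), and the hairpins differed in both. Of 10 markers of retinal pigment epithelium only MITF and OTX2 were above 3 counts in all libraries, and RGR and TTR were at 0 throughout. The summed level of the 10 ranged from 45.8 to 51.5 CPM in Control, 40.9 to 58.2 with the hairpins and 62.2 to 67.4 in Soft, and OTX2 rose in both conditions (log2 fold change 0.65 and 1.77). MITF went the other way, at 34.3 to 39.3 CPM in Control, 24.3 to 37.8 with the hairpins and 25.8 to 26.3 in Soft. Its log2 fold changes were -0.25 (adjusted p = 0.287) and -0.49 (adjusted p = 0.0259). The cytoskeletal genes KRT8, KRT18 and VIM together ranged from 10493 to 10702 CPM in Control, 5165 to 8985 with the hairpins and 6841 to 7176 in Soft. KRT18 fell in both conditions (-1.10 and -1.31) and KRT8 fell in Soft (-0.98). The summed level of 8 leukocyte markers ranged from 66.5 to 71.2 CPM in Control, 44.1 to 83.3 with the hairpins and 156 to 159 in Soft. CD68 made up most of this sum, with means of 66.0 CPM in Control, 63.7 in sh_PIP4K2B and 145 in Soft. CD68 (1.13), CSF1R (2.29) and CD14 (2.77) rose in Soft, but CD14 had at most 17 counts in any library. ITGAM was at 0 in Soft and had at most 4 counts elsewhere. PTPRC had at most 12 counts and LYZ at most 2 in any library, and TYROBP was at 0. The summed level of 4 endothelial markers ranged from 1.01 to 1.97 CPM in Control, 0.674 to 1.24 with the hairpins and 5.18 to 6.09 in Soft. PECAM1 rose in Soft (5.45) from at most 0.218 CPM in Control, TEK fell in Soft (-1.88) and CDH5 had at most 1 count in any library. The part of these differences in the results below was not tested.

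On the soft gel 13 of 37 tested members rose, beside 15.8% of all genes tested, led by the prostaglandin E synthase PTGES, the monocyte attractant CCL2 and the adhesion molecule ICAM1, each at 9 times the Control mean or above in every Soft library. With the hairpins the interleukin IL1A and the cytokine signalling inhibitor SOCS3 passed the test, and the neutrophil attractants CXCL1, CXCL2, CXCL3 and CXCL8 were high with hairpins 1 and 3 but not with hairpin 2. CXCL1, CXCL2 and CXCL3, but not CXCL8, were also more than 2-fold above the Control mean in all 3 Soft libraries, without passing the test. CCL2 stayed between 9.85 and 14.8 CPM with the hairpins. Of the 39 members other than PTGS2 and BCL3, 37 had enough counts to be tested. PTGS1 and VCAM1 did not. The test was edgeR's quasi-likelihood test over 13784 genes with all 9 libraries in 1 fit, and a change was called at an adjusted p below 0.01. Where no other fit is named, that a gene passed or missed refers to this one. In bulk RNA, fewer cells expressing a gene and less RNA per cell cannot be told apart.

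In sh_PIP4K2B against Control, 2 of the 37 rose (IL1A and SOCS3), beside 2.76% of all genes tested. No member fell, beside 2.77% of all genes. At an unadjusted p below 0.05, 20 members were higher and 1 was lower. The share of all genes at that threshold is not given here, so nothing is read from such counts. DESeq2 called 13 members, of which LIF was lower. The others called by DESeq2 were IL1A, SOCS3, PTGES, IL1B, CSF1, IL6, IL11, NFKBIE, CXCL1, CXCL2, CXCL3 and CXCL8. DESeq2 called 13.5% of all genes it tested, in either direction. In Soft against Control, beside the 13 members that rose, 1 (BIRC2) fell, beside 14.8% of all genes. The median log2 fold change of the 37 was 0.60 in sh_PIP4K2B and 0.94 in Soft, against 0.05 and 0.01 over all genes tested. Both comparisons use the same Control libraries, so that they are not independent, and the members were listed with results in view, so that nothing is read from these shares. When Soft was tested directly against sh_PIP4K2B, 8 members were higher in Soft (14.5% of all genes) and 1, BIRC2, was lower (15.5% of all genes). The 8 were CCL2, IL1B, LIF, NFKBIA, NFKBIZ, PTGES, TNFAIP2 and TRAF1. Of these, IL1B, NFKBIA, TNFAIP2 and TRAF1 were lost when any 1 library of Control or Soft was left out. Then 5 calls of the 9 held, beside 16.8 to 23.4% of all genes called in either direction. Without hairpin 3 this comparison gave 16 calls (37.7% of all genes). The count for sh_PIP4K2B depended on which hairpin was in the fit: it was 5, 13 and 7 without hairpin 1, 2 and 3 (11.9, 14.4 and 12.7% of all genes were then called in either direction), 1, 0 and 1 without Control library 1, 2 and 3 (0.872, 0.471 and 1.15%) and 1 without any 1 of the Soft libraries (2.24 to 2.42%). Of the 5, 13 and 7 calls, 1, 1 and 2 were lower than Control. In fits of only the 2 groups compared, the counts were 0 in sh_PIP4K2B (15 members at an unadjusted p below 0.05; 0.0375% of all genes called) and 28 in Soft (70.7% of all genes called).

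**Figure D1:**
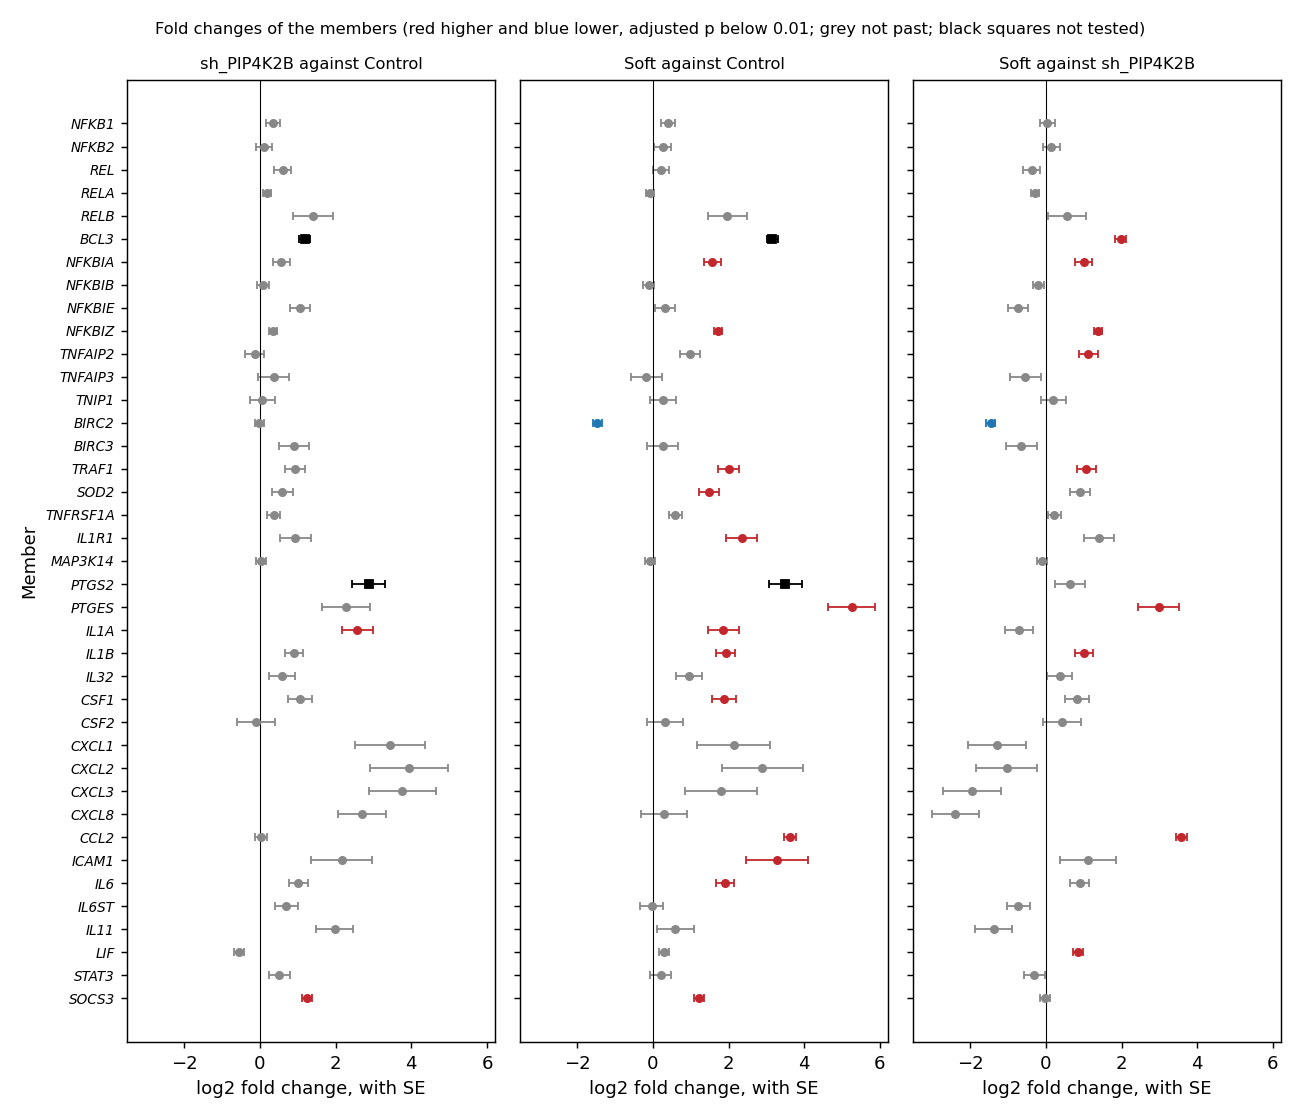
log2 fold change with its standard error (horizontal axis) of the 39 members with enough counts (vertical axis) in the 3 comparisons, from 1 fit of 9 libraries. Red and blue circles passed an adjusted p of 0.01 as higher or lower, grey circles did not, and the black squares are PTGS2 and BCL3, which were not tested against Control. PTGES (5.25) lies farthest to the right in Soft against Control, and BIRC2 (-1.47) is the blue point there.

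Counted by the libraries themselves, 19 of the 37 members had all 3 hairpin libraries above all 3 Control libraries (17.4% of all genes) and 1, LIF, had them all below (16.7%). In Soft the same counts were 27 (40.3%) and 4 (39.1%). The 4 were BIRC2, MAP3K14, RELA and TNFAIP3, of which MAP3K14 and RELA changed sign when libraries were scaled by their totals only. All 3 hairpin libraries were more than 2-fold above the Control mean for IL1A and SOCS3 only (1.17% of all genes), and for no member were they more than 2-fold below (0.414%). All 3 Soft libraries were more than 2-fold above for 17 members (11.0%) and below for BIRC2 (6.23%). The hairpins differed from one another: 11 members were more than 2-fold above the Control mean with hairpin 1, 3 with hairpin 2 and 20 with hairpin 3, beside 7.63, 4.37 and 8.04% of all genes. The 3 Soft libraries gave 17, 19 and 17, beside 13.1, 13.3 and 13.2% of all genes. The median SD of log2 CPM over the members was 0.621 between hairpins, 0.0638 between Control libraries and 0.0902 between Soft libraries. Over all genes tested these medians were 0.355, 0.0807 and 0.0732.

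**Figure D2:**
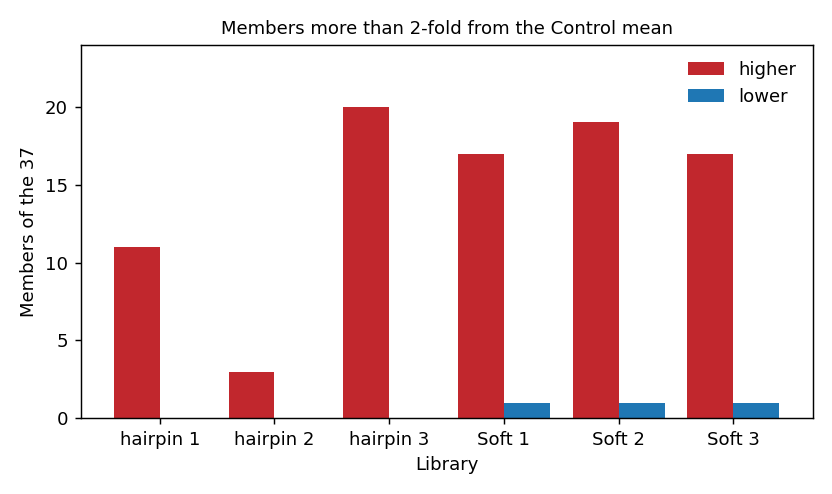
Number of the 37 tested members (vertical axis) more than 2-fold above (red) or below (blue) the Control mean in each hairpin and Soft library (horizontal axis). Hairpin 2 has 3 members above, hairpin 1 has 11 and hairpin 3 has 20, while the Soft libraries have 17 to 19 above and 1 below; over all genes tested the share above was 7.63, 4.37 and 8.04% with hairpins 1 to 3 and 13.1 to 13.3% in Soft.

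**Figure D3:**
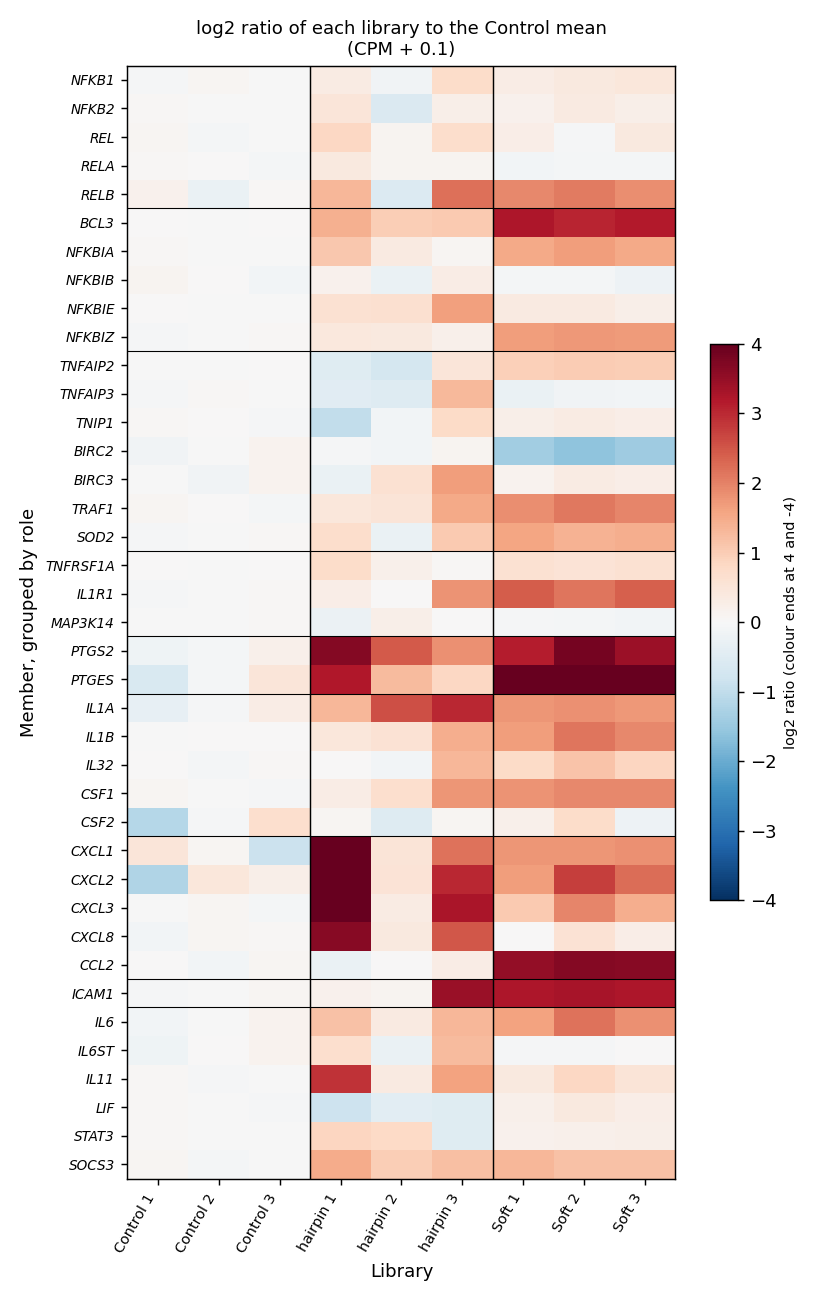
log2 ratio of CPM + 0.1 in each of the 9 libraries (columns) to the Control mean (colour) for the 39 members with enough counts (rows), with lines between roles. Soft libraries resemble one another down each row, while the chemokines CXCL1, CXCL2, CXCL3 and CXCL8 are dark with hairpins 1 and 3 and pale with hairpin 2.

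In the edgeR fit of 9 libraries none of the DNA-binding subunits of NF-kB passed in any comparison. RELA, which carries a transactivation domain and is part of the classical dimer, was at 105 to 114 CPM in Control, 118 to 142 with the hairpins and 103 to 104 in Soft. NFKB1, the precursor of p50, ranged from 33.2 to 35.9 CPM in Control, 31.3 to 57.4 with the hairpins and 42.4 to 47.5 in Soft. NFKB2, the precursor of p52, was at 83.5 to 87.0, 56.6 to 118 and 96.1 to 108 CPM. REL stayed under 8 CPM in every library, and 51% of the 75-base stretches of its canonical transcript also occur in another annotated gene, so that its level is uncertain. RELB, the partner of p52 in the non-canonical pathway, was the subunit with the widest range. It was at 7.03, 5.13 and 6.38 CPM in Control, at 15.8, 4.19 and 29.0 CPM with hairpins 1, 2 and 3, and at 23.6, 26.4 and 22.6 CPM in Soft. All Soft libraries were thus above all Control libraries, but hairpin 2 was below them. The Soft difference was 1.97 on the log2 scale (SE 0.52, adjusted p = 0.0126), which misses the threshold. RELB was called in Soft by DESeq2, by edgeR with no filter on low counts, and without hairpin 2 or 3, and RELB, NFKB1 and NFKB2 were called in the fit of Soft and Control alone. RELB and REL were called in sh_PIP4K2B without hairpin 2.

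BCL3, an IkB protein that works in the nucleus as a coactivator with p50 or p52, was at 7.12, 7.02 and 7.16 CPM in Control. It was at 19.3, 14.2 and 14.8 CPM with hairpins 1, 2 and 3 and at 67.3, 58.8 and 64.2 CPM in Soft. The 3 groups did not overlap, with the hairpins between Control and Soft. The log2 fold change over Control was 1.18 (SE 0.14) with the hairpins and 3.16 (SE 0.14) in Soft. Soft was higher than sh_PIP4K2B by 1.98 on the log2 scale (SE 0.14, adjusted p = 1.71e-05).

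The inhibitor NFKBIA (IkB-alpha), a direct target of the factor it restrains, was at 18.3, 17.6 and 17.7 CPM in Control, 37.9, 22.9 and 18.7 CPM with hairpins 1, 2 and 3, and 51.1, 56.5 and 51.2 CPM in Soft. Every Soft library was above every library on glass. It rose in Soft by 1.57 on the log2 scale (SE 0.23, adjusted p = 5.16e-04), and in sh_PIP4K2B its log2 fold change was 0.57 (adjusted p = 0.11). NFKBIZ, a nuclear IkB protein needed for a subset of secondary response genes such as IL6, was at 14.9, 15.1 and 15.8 CPM in Control, 20.5, 20.0 and 17.6 CPM with the hairpins, and 49.1, 50.8 and 50.2 CPM in Soft. It was among the most uniform members, with little spread in any group. NFKBIZ rose in Soft by 1.71 (SE 0.10, adjusted p = 7.23e-06) and was 1.37 higher in Soft than in sh_PIP4K2B (adjusted p = 2.49e-05). NFKBIB and NFKBIE, which also retain dimers in the cytoplasm, passed in no comparison of the edgeR fit. NFKBIE was at 7.72 to 8.01 CPM in Control, at 12.0, 12.2 and 24.9 CPM with hairpins 1, 2 and 3 (log2 fold change 1.06, adjusted p = 0.0245) and was at 9.29 to 10.1 CPM in Soft. DESeq2 called NFKBIE in sh_PIP4K2B, as did edgeR without hairpin 1 or 3.

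Among feedback and survival proteins, BIRC2 was the one member that fell. BIRC2 (cIAP1) is a ubiquitin ligase that acts in tumour necrosis factor signalling and, with TRAF proteins, keeps the kinase MAP3K14 (NIK) low. It was at 116, 127 and 142 CPM in Control, 123, 119 and 139 CPM with the hairpins, and 48.5, 42.4 and 48.1 CPM in Soft. The Soft libraries were far below all 6 libraries on glass, among which Control and hairpins overlapped. The change was -1.47 against Control (SE 0.12, adjusted p = 2.52e-05) and -1.45 against sh_PIP4K2B (adjusted p = 3.52e-05). MAP3K14 was at 16.4 to 23.0 CPM across the 9 libraries and passed in no comparison. BIRC3 (cIAP2), the close relative of BIRC2, was at 2.50 to 3.10 CPM in Control, at 2.30, 4.33 and 8.99 CPM with hairpins 1, 2 and 3, and at 3.10 to 3.52 CPM in Soft, with no test passed.

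TRAF1, an adaptor that binds these ligases and is induced by NF-kB, was at 4.56, 4.34 and 4.06 CPM in Control, 5.98, 6.26 and 12.5 CPM with the hairpins, and 16.1, 18.9 and 17.0 CPM in Soft. The 3 groups were separate, and hairpin 3 was closest to Soft. It rose by 2.00 in Soft (SE 0.27, adjusted p = 3.58e-04), while the value in sh_PIP4K2B was 0.93 (adjusted p = 0.0425). SOD2, the mitochondrial superoxide dismutase, was at 31.6, 32.5 and 33.5 CPM in Control, 53.2, 26.8 and 67.4 CPM with the hairpins, and 98.1, 85.8 and 89.9 CPM in Soft. It rose by 1.49 in Soft (SE 0.27, adjusted p = 0.00178), a call that was lost without Control library 1 (the highest adjusted p over the alternatives was 0.0104). TNFAIP2 was at 20.1, 19.8 and 20.5 CPM in Control, 14.4, 12.5 and 28.1 CPM with the hairpins, and 39.1, 40.7 and 39.9 CPM in Soft. Hairpins 1 and 2 lay below Control and hairpin 3 above it. TNFAIP2 was 1.12 higher in Soft than in sh_PIP4K2B (SE 0.26, adjusted p = 0.00627), and its difference of 0.99 from Control missed the threshold (adjusted p = 0.0114). That difference from Control passed in 7 of 16 alternatives, among them DESeq2 and the fits without any 1 hairpin. In sh_PIP4K2B against Control, TNFAIP2 was called lower without hairpin 3 (-0.59, adjusted p = 0.00367). TNFAIP3 (A20), a ubiquitin-editing enzyme that ends NF-kB signalling, was at 22.4 to 24.3 CPM in Control, 17.0, 16.4 and 56.8 CPM with hairpins 1, 2 and 3, and 19.1 to 21.7 CPM in Soft. Its binding partner TNIP1 was also highest with hairpin 3, at 73.2, 135 and 251 CPM with the hairpins against 141 to 149 CPM in Control. Neither passed, although TNFAIP3 was called lower in sh_PIP4K2B without hairpin 3 and TNIP1 higher in the fit of Soft and Control alone.

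IL1R1, the signalling receptor of interleukin-1, was at 5.59, 5.75 and 5.94 CPM in Control, 6.90, 5.83 and 20.5 CPM with hairpins 1, 2 and 3, and 31.5, 26.0 and 30.6 CPM in Soft. Only hairpin 3 stood clear of Control. It rose by 2.35 in Soft (SE 0.41, adjusted p = 0.00155), and the difference of Soft from sh_PIP4K2B was 1.41 (adjusted p = 0.0166). TNFRSF1A, the main receptor of tumour necrosis factor, was at 250 to 252 CPM in Control, 422, 289 and 257 CPM with hairpins 1, 2 and 3, and 367 to 384 CPM in Soft (log2 fold change 0.59, adjusted p = 0.0184). Per length of the canonical transcript TNFRSF1A was the most abundant member in Control, at 116 CPM per kb, followed by LIF at 93.0 and TNIP1 at 50.8 CPM per kb. In Soft the order of levels per kb was CCL2 (197), TNFRSF1A (174), LIF (113) and IL1B (91.9).

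PTGS2 (cyclooxygenase 2) makes prostaglandin H2, which PTGES turns into prostaglandin E2. PTGS2 was at 6.42, 6.80 and 8.39 CPM in Control. It was at 93.0, 39.6 and 25.9 CPM with hairpins 1, 2 and 3 and at 63.7, 103 and 78.5 CPM in Soft. Every hairpin and Soft library was above every Control library, and hairpin 1 lay within the range of Soft. The log2 fold change over Control was 2.87 (SE 0.44) with the hairpins and 3.50 (SE 0.45) in Soft. Soft and sh_PIP4K2B differed by 0.63 (SE 0.40, adjusted p = 0.221), a difference that passed when hairpin 1 was left out (1.31, adjusted p = 0.00225). PTGES was at 0.512, 0.790 and 1.22 CPM in Control, 8.51, 2.17 and 1.58 CPM with hairpins 1, 2 and 3, and 35.6, 29.4 and 32.2 CPM in Soft. The Control values rest on 11, 18 and 28 counts. The groups did not overlap, and hairpin 1 was the highest of the hairpins for both enzymes. PTGES rose by 5.25 in Soft (SE 0.63, adjusted p = 1.89e-04) and was 2.98 higher in Soft than in sh_PIP4K2B (SE 0.53, adjusted p = 0.00174). In sh_PIP4K2B its log2 fold change of 2.27 missed the threshold (adjusted p = 0.0360). The constitutive cyclooxygenase PTGS1 had at most 4 counts in any library.

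**Figure D4:**
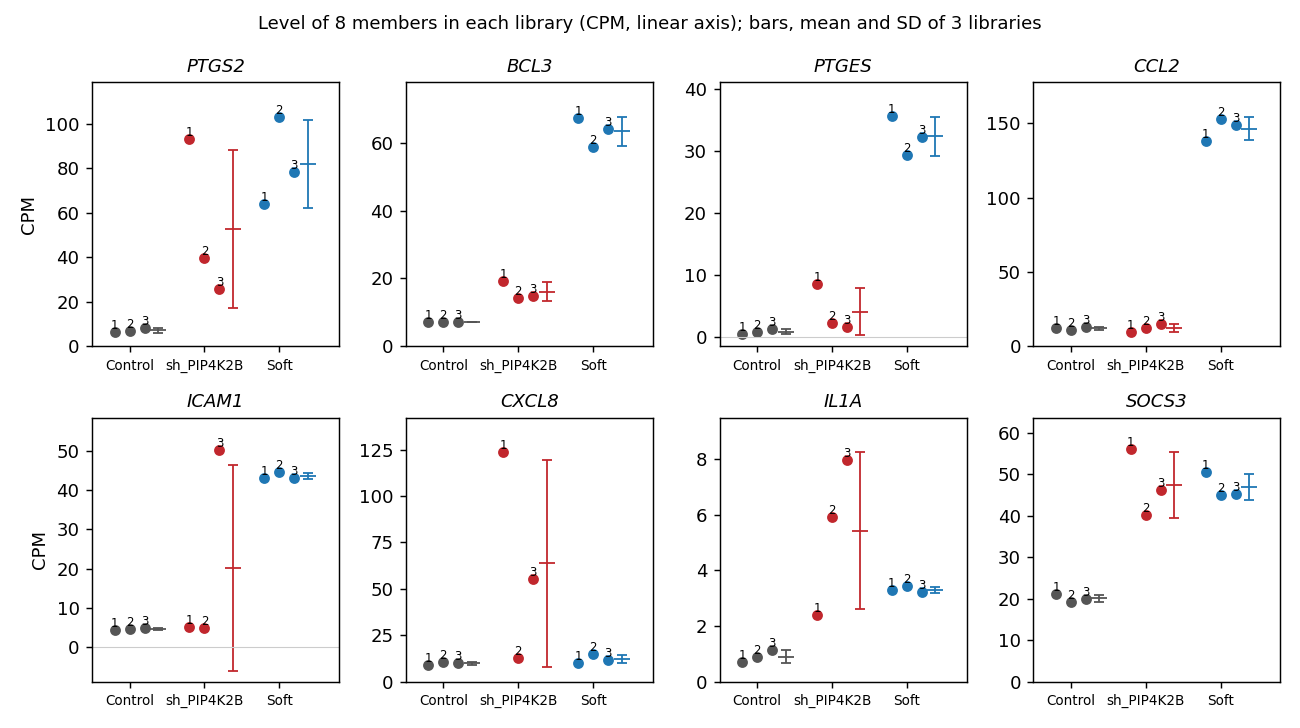
CPM (linear vertical axis) of 8 members in each library (numbered points) of Control, sh_PIP4K2B and Soft (horizontal axis), with the mean and SD of 3 libraries beside them; the SD bars of scattered groups can reach below 0. In the CCL2 panel the hairpin points lie level with Control and Soft lies near 146 CPM, in the CXCL8 panel hairpins 1 and 3 stand alone, and in the ICAM1 panel hairpin 3 joins the Soft points.

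IL1A and IL1B both act on IL1R1. IL1A was at 0.698, 0.877 and 1.14 CPM in Control, 2.39, 5.92 and 7.95 CPM with hairpins 1, 2 and 3, and 3.28, 3.43 and 3.22 CPM in Soft. All hairpin and Soft libraries were above Control, and hairpins 2 and 3 were above Soft. It rose by 2.57 in sh_PIP4K2B (SE 0.41, adjusted p = 0.00419) and by 1.86 in Soft (SE 0.41, adjusted p = 0.00528), and both calls were lost when any 1 library of Control or Soft was left out (highest adjusted p over the alternatives 0.0300 and 0.0255). IL1B was at 36.2, 36.8 and 36.8 CPM in Control, 50.6, 55.2 and 99.5 CPM with the hairpins, and 118, 160 and 138 CPM in Soft. The groups were in this order without overlap. IL1B rose by 1.92 in Soft (SE 0.24, adjusted p = 2.61e-04) and was 1.02 higher in Soft than in sh_PIP4K2B (SE 0.24, adjusted p = 0.00686), and in sh_PIP4K2B against Control its value was 0.90 (adjusted p = 0.0315).

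CSF1, the growth factor of macrophages, was at 46.4, 44.0 and 42.5 CPM in Control, 54.6, 71.1 and 151 CPM with hairpins 1, 2 and 3, and 153, 169 and 168 CPM in Soft. Hairpin 3 all but reached the Soft level. It rose by 1.88 in Soft (SE 0.32, adjusted p = 0.0012) and its value in sh_PIP4K2B was 1.06 (adjusted p = 0.0449). IL32, an inflammatory cytokine, was at 4.91 to 5.42 CPM in Control, 5.29, 4.86 and 13.2 CPM with hairpins 1, 2 and 3, and 8.93 to 11.5 CPM in Soft (log2 fold change 0.94, adjusted p = 0.0462). CSF2 stayed under 1.3 CPM in all libraries.

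CCL2 was high in Soft alone, and CXCL8 with hairpins 1 and 3 alone. CCL2, which draws monocytes, was at 12.1, 11.1 and 12.7 CPM in Control, 9.85, 12.0 and 14.8 CPM with the hairpins, and 138, 153 and 149 CPM in Soft. The hairpins surrounded Control, and the Soft libraries stood about 12 times the Control mean. CCL2 rose by 3.61 in Soft (SE 0.16, adjusted p = 1.83e-06) and was 3.58 higher in Soft than in sh_PIP4K2B (SE 0.16, adjusted p = 2.08e-06), and against Control the hairpins gave 0.03 (SE 0.15). CXCL8 (interleukin-8), which draws neutrophils, was at 9.08, 10.4 and 10.1 CPM in Control, 123, 13.0 and 55.1 CPM with hairpins 1, 2 and 3, and 9.98, 14.7 and 11.9 CPM in Soft. Soft overlapped Control, and hairpins 1 and 3 were above every other library. The log2 fold change of CXCL8 was 2.70 in sh_PIP4K2B (SE 0.62, adjusted p = 0.0190) and 0.31 in Soft (adjusted p = 0.704). Soft was lower than sh_PIP4K2B by a log2 difference of -2.39 (SE 0.61, adjusted p = 0.011), just short of the threshold.

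CXCL1, CXCL2 and CXCL3 are neighbours of CXCL8 on chromosome 4 and act on the same receptor, CXCR2. They were low throughout, highest with hairpins 1 and 3, and in all 3 Soft libraries above Control. CXCL1 had 8, 6 and 2 counts in Control, 132, 8 and 29 counts with hairpins 1, 2 and 3, and 23, 22 and 25 counts in Soft. CXCL2 had 0, 5 and 4 counts in Control, 94, 5 and 36 with the hairpins, and 14, 31 and 22 in Soft. CXCL3 had 6, 7 and 6 counts in Control, 167, 8 and 73 with the hairpins, and 15, 29 and 21 in Soft. Between the highest and the lowest hairpin the level in CPM differed 15.8-fold for CXCL1, 18.0-fold for CXCL2 and 19.9-fold for CXCL3, and 9.50-fold for CXCL8. Hairpin 1 was the highest and hairpin 2 the lowest for all 4. None passed the test in any comparison (adjusted p = 0.0328, 0.0308 and 0.0204 for CXCL1, CXCL2 and CXCL3 in sh_PIP4K2B), whereas all 4 were called in sh_PIP4K2B by DESeq2 and by edgeR without hairpin 2. In Soft against Control, DESeq2 called CXCL2, and the fit of Soft and Control alone called CXCL1, CXCL2 and CXCL3. At most 2.5% of the 75-base stretches of the 3 transcripts are shared with another gene.

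ICAM1, the endothelial and epithelial ligand of leukocyte integrins, was at 4.33, 4.43 and 4.72 CPM in Control, 5.11, 4.82 and 50.4 CPM with hairpins 1, 2 and 3, and 43.3, 44.6 and 43.3 CPM in Soft. Hairpins 1 and 2 were close to Control and hairpin 3 was above Soft. It rose by 3.28 in Soft (SE 0.82, adjusted p = 0.00935). The call was lost on leaving out any 1 library of Control or Soft (highest adjusted p 0.0380), and the 3.28 moved only between 3.25 and 3.39. DESeq2 did not call it either, but returned no adjusted p for ICAM1 in sh_PIP4K2B against Control. Its missing call in Soft may therefore not be a failed test. The shared fit takes in the spread of the hairpins, and against sh_PIP4K2B the difference was 1.12 (adjusted p = 0.24). That difference passed when hairpin 3 was left out (3.13, adjusted p = 2.10e-06). VCAM1, another integrin ligand, had 1, 0 and 0 counts in Control, 0, 0 and 1 with the hairpins and 7, 1 and 9 in Soft, too few for a test.

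IL6 signals through the shared receptor chain IL6ST (gp130) to STAT3, and SOCS3 is induced by STAT3 and shuts the receptor off. IL6 was at 7.82, 8.34 and 9.39 CPM in Control, 19.3, 10.9 and 21.4 CPM with hairpins 1, 2 and 3, and 26.4, 38.6 and 30.7 CPM in Soft. The groups did not overlap, and hairpin 2 lay closest to Control. IL6 rose by 1.91 in Soft (SE 0.25, adjusted p = 3.11e-04), and its value in sh_PIP4K2B was 1.01 (adjusted p = 0.0234). SOCS3 was at 21.0, 19.2 and 20.0 CPM in Control, 56.0, 40.2 and 46.2 CPM with the hairpins, and 50.5, 45.0 and 45.2 CPM in Soft. All 6 treated libraries were at least 2.00 times the Control mean, and the hairpin and Soft libraries overlapped. SOCS3 rose by 1.24 in sh_PIP4K2B (SE 0.13, adjusted p = 9.71e-04) and by 1.23 in Soft (SE 0.13, adjusted p = 1.21e-04). The difference between the 2 conditions was -0.016 (SE 0.13, adjusted p = 0.931). The call in sh_PIP4K2B was lost without Control library 2 and in a fit of those 2 groups alone (highest adjusted p 0.0181).

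IL11 and LIF are cytokines of the same family. IL11, like CXCL8, was highest with hairpins 1 and 3, at 23.3, 21.9 and 22.1 CPM in Control, 166, 29.1 and 69.0 CPM with hairpins 1, 2 and 3, and 29.8, 39.8 and 31.9 CPM in Soft, with a log2 fold change of 1.97 in sh_PIP4K2B (adjusted p = 0.0260). LIF was at 375, 357 and 348 CPM in Control, 204, 271 and 257 CPM with the hairpins, and 412, 469 and 436 CPM in Soft. The hairpins were below and Soft was above all Control libraries, but neither difference from Control passed (-0.56, adjusted p = 0.0186, and 0.29, adjusted p = 0.0935). LIF was 0.85 higher in Soft than in sh_PIP4K2B (SE 0.13, adjusted p = 7.47e-04). IL6ST was at 305 to 376 CPM in Control, 543, 287 and 830 CPM with hairpins 1, 2 and 3 and 329 to 344 CPM in Soft. STAT3 was at 167 to 173 CPM in Control, 309, 293 and 122 CPM with the hairpins and 190 to 200 CPM in Soft, so that hairpin 3, the highest hairpin for 21 of the 37 tested members and for 34.3% of all genes, was the lowest for STAT3. Neither passed, although IL6ST was called in sh_PIP4K2B without hairpin 2, and STAT3 without hairpin 3 and in the fit of Soft and Control alone.

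Other genes of these pathways were described from 5 lists, whose choice also followed earlier results. Their counts stand beside the shares of all genes given above (2.76% higher and 2.77% lower in sh_PIP4K2B, 15.8 and 14.8% in Soft). Of 42 signal transducers upstream of NF-kB, 1 rose and 0 fell in sh_PIP4K2B, and 5 rose and 6 fell in Soft (median log2 fold change -0.02 and -0.09). The 11 in Soft became 5 without any 1 library of Control or Soft (17.9 to 19.4% of all genes called) and 27 in the fit of those 2 groups alone (70.7%). The gene that rose with the hairpins was IL1RAP, the co-receptor of IL1R1. It was at 14.3, 15.1 and 16.2 CPM in Control, 109, 51.0 and 60.4 CPM with hairpins 1, 2 and 3, and 16.6, 14.0 and 14.1 CPM in Soft (log2 fold change 2.27, adjusted p = 0.0011, with the hairpins). The call was lost without Control library 1 or 2 and in the fit of those 2 groups alone (highest adjusted p 0.0181). IL1RAP was above Control with every hairpin and overlapped Control in Soft, where its partner IL1R1 rose. Soft was lower than sh_PIP4K2B for IL1RAP by a log2 difference of -2.30 (adjusted p = 1.66e-04). TNFRSF1B, the second receptor of tumour necrosis factor, was at 1.09 to 1.14 CPM in Control and 12.7 to 15.2 CPM in Soft (3.64, adjusted p = 5.00e-06). IRAK2, a kinase of interleukin-1 receptor signalling, rose in Soft by 2.10 (adjusted p = 2.63e-04).

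Of 12 other cytokines and chemokines, 0 passed in sh_PIP4K2B, and 4 rose and 1 fell in Soft (medians 0.46 and 0.67). TSLP, an epithelial cytokine, was at 4.10 to 4.87 CPM in Control, 5.02 to 9.49 CPM with the hairpins and 73.2 to 80.5 CPM in Soft (4.07, adjusted p = 5.60e-06). IL1RN, the secreted antagonist of interleukin-1, was at 0.395 to 0.466 CPM in Control and 11.2 to 11.9 CPM in Soft (4.72, adjusted p = 3.73e-04). Of 27 other genes known as NF-kB targets, 4 rose and 0 fell in sh_PIP4K2B, and 6 rose and 4 fell in Soft (medians 0.28 and 0.02). NUAK2 rose in sh_PIP4K2B (1.47, adjusted p = 0.00321), TNFAIP8 rose in sh_PIP4K2B (0.92, adjusted p = 0.00384) and in Soft (1.89), NINJ1 rose in Soft (1.90), and the cyclin gene CCND1 fell in Soft from 2353 to 2418 CPM to between 489 and 553 CPM (-2.20, adjusted p = 5.00e-05).

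Of 22 other prostaglandin genes, 0 rose and 1 (TBXA2R) fell in sh_PIP4K2B, and 8 rose and 2 fell in Soft (medians 0.04 and 0.45). PTGIS, the prostacyclin synthase, was at 2.66 to 4.05 CPM in Control, 0.741 to 1.97 CPM with the hairpins and 33.4 to 36.0 CPM in Soft. It rose by 3.42 in Soft (adjusted p = 3.90e-05), and Soft exceeded sh_PIP4K2B by 4.90 (adjusted p = 1.63e-05). The phospholipase PLA2G6 rose in Soft by 2.84 (adjusted p = 2.35e-06). Of 22 other genes of the IL-6 family and STAT3, 4 rose and 0 fell in sh_PIP4K2B, and 7 rose and 2 fell in Soft (medians 0.36 and 0.40). The receptor IL6R rose with the hairpins (1.70, adjusted p = 0.00178) and in Soft (2.34, adjusted p = 6.36e-05). The transcription factor gene JUNB rose with the hairpins (1.74, adjusted p = 0.00743) and in Soft (1.66, adjusted p = 0.00234), and SOCS1, a relative of SOCS3, rose in Soft (2.39, adjusted p = 1.61e-05). The calls of NUAK2, TNFAIP8, IL6R and JUNB in sh_PIP4K2B were each lost without any 1 Control library and in the fit of those 2 groups alone (highest adjusted p 0.0250, 0.0373, 0.0204 and 0.0424), and those of TNFAIP8 and JUNB also without any 1 Soft library and with a replicate block. Without any 1 Control library, 0 of the 4 called NF-kB targets and 0 of the 4 called genes of the IL-6 family were left in sh_PIP4K2B, and without any 1 Soft library 1 of each. The call of JUNB in Soft was lost without any 1 Control library (highest adjusted p 0.0128). For the counts of 0 above, all in sh_PIP4K2B, the quasi-likelihood test at an unadjusted p below 0.05 and DESeq2 gave 2 and 1 lower among the transducers, 3 and 2 higher and 0 and 0 lower among the cytokines, 3 and 2 lower among the NF-kB targets, 3 and 0 higher among the prostaglandin genes, and 4 and 3 lower among the genes of the IL-6 family.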

How the data were processed

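RNA-seq libraries (stranded mRNA, paired reads of 75 nt) were aligned by the authors to GRCh38/hg38 with STAR, per the study's methods. The submitters' processing notes also name Salmon, with no role; the annotation is not given in the sources used here. The deposited table holds estimated counts per gene (12.3% of values not whole), which were rounded. edgeR 4.0.16 (R 4.3.3) gave TMM-scaled CPM and quasi-likelihood F tests over the 13784 genes left by filterByExpr, adjusted after Benjamini and Hochberg and called below 0.01. SE is the log2 fold change divided by the root of F. DESeq2 1.42.0 was an alternative. Scripts were tested on simulated data. A count of 3 was taken as the floor (0.131 to 0.148 CPM).

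The members and lists were chosen with earlier results of these data known. Full values are given for PTGS2, BCL3 and each other member past the threshold with a log2 change of at least 1 and a mean of at least 1 CPM; in each list, for the 2 largest called changes against Control among genes that reached 5 CPM on average in a group. Other members named with values (among them RELB, NFKBIE, CXCL8, IL11, LIF) fall outside this rule and are given by their ranges or because hairpins differed, chosen after their values were seen. Transcript lengths and 75-base stretches come from GENCODE annotation of the same build.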

Additional observations from a re-analysis of the deposited data

How the results depend on the processing

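The number of members called was 2 in sh_PIP4K2B against Control, 14 in Soft against Control and 9 in Soft against sh_PIP4K2B. Of all 13784 genes tested, 763, 4217 and 4135 were called. DESeq2 gave 13 in sh_PIP4K2B against Control (13.5% of all genes) and 14 in Soft against sh_PIP4K2B (35.3%). A fit of only the 2 conditions compared gave 0 (15 members at an unadjusted p below 0.05), 28 and 5, beside 0.0375, 70.7 and 16.1% of all genes. A threshold of 0.05 gave 15 in sh_PIP4K2B against Control and 15 in Soft against sh_PIP4K2B, for which no share of all genes is given. Leaving out 1 library at a time gave 0 to 13, 11 to 18 and 5 to 16. The shares of all genes called moved as well, from 0.471 to 14.4%, 17.9 to 45.6% and 16.8 to 38.4%. The 5 for Soft against sh_PIP4K2B came from leaving out any 1 library of Control or Soft, and the 16 without hairpin 3. A fit without 1 library assumes that groups left with fewer libraries vary like the others.

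The labels number the libraries 1 to 3 in each group. Same-numbered libraries did not deviate together (r from -0.115 to 0.0394 over genes tested), so the numbers were not taken as pairs. With a replicate block the counts were 2, 14 and 9, beside 2.14, 25.7 and 24.4% of all genes. In Soft against sh_PIP4K2B TRAF1 was then lost and IL1R1 gained. Scaling by library size only moved the median log2 change of all genes by 0.107 in Soft against Control and turned the sign of RELA, MAP3K14 and IL6ST there and of BIRC2 in sh_PIP4K2B against Control, none of them called. The calls of BCL3 in Soft against sh_PIP4K2B and of NFKBIZ, BIRC2, CCL2 and PTGES in both comparisons of Soft held under all 16 alternatives. Each hairpin has 1 library and each group 3. Counts under 10 limit CXCL1, CXCL2, CXCL3, CSF2, PTGS1 and VCAM1.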

Other observations

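Across the 9 libraries the genes outside the members whose log2 CPM followed PTGS2 most closely (Pearson correlation, given as a description since the libraries fall into 3 groups and share their source) were DDX5 (0.994), CUTA (0.993), ADAM17 (0.987), HLA-F (0.985) and LUC7L (0.984). HLA-F, a class I histocompatibility gene, was at 3.25 to 3.45 CPM in Control, 10.8, 8.72 and 7.46 CPM with hairpins 1, 2 and 3, and 11.9 to 12.6 CPM in Soft. ADAM17, the protease that releases tumour necrosis factor and the IL-6 receptor from the membrane, was at 39.8 to 45.3 CPM in Control, 77.7, 61.6 and 51.3 CPM with the hairpins, and 75.3 to 79.5 CPM in Soft. Since these genes were chosen for their likeness to PTGS2, tests of their differences from Control are left out here. The helicase gene DDX5 moved within a narrow range, from 553 to 572 CPM in Control to 631 to 715 CPM with the hairpins and 674 to 704 CPM in Soft. Among the members, SOCS3 (0.937), TNFRSF1A (0.906) and PTGES (0.892) followed PTGS2 most closely.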
